A study of Mus musculus with 12 samples.

Results

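The genes described here were 38 activity-induced immediate early genes of the mouse, taken by name out of the 48709 genes of the count tables. All 38 also passed the filter on low counts and were among the 18847 genes tested, with the least abundant, Klf2, at a lowest value of 8 reads in a library. The rule names Arc, Npas4, the Egr and Nr4a genes and Nptx2 as neuron-selective, which gave 10 members. A further 16 members were set apart as general stress-responsive genes, namely Atf3, Jun, Junb, Fos, Btg2, Ier2, Ier5, Dusp1, Klf2, Klf4, Klf10, Gadd45b, Gadd45g, Plk2, Plk3 and Trib1. The remaining 12 members were Fosb, Fosl2, Jund, Dusp4, Dusp5, Dusp6, Pcsk1, Inhba, Ptgs2, Arl4d, Sik1 and Gem. The rule itself uses no measured value, but the members and the division into classes were set with earlier results of these data known.

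Immediate early genes are transcribed within minutes of a stimulus from factors that are already in the cell, without new protein synthesis. In neurons, calcium entry through NMDA receptors and voltage-gated channels drives them through CREB, serum response factor and MEF2, and they are the usual markers of recent synaptic activity. Npas4, Arc and Nptx2 are transcribed mainly in neurons, whereas Fos, Jun, Atf3, Klf4, Btg2 and Dusp1 respond in almost any cell to growth factors, serum or damage.

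The cells were primary hippocampal cultures from embryonic day 17 (E17) embryos of CD1 mice, an outbred stock. From day in vitro 10 (DIV10) they received lipid nanoparticles. These were loaded with a mimic of miR-148a-3p, which adds copies of this microRNA to the cell, or with a negative control oligonucleotide, and RNA was taken at DIV12 after 48 h. Polyadenylated RNA of 6 control and 6 mimic samples was sequenced as 50 bp single reads. By the study's methods hippocampi of several embryos were pooled for plating and apolipoprotein E4 was given with the nanoparticles, so both groups received lipid, an oligonucleotide and this carrier protein. An untreated group was not analysed here. The sources do not say whether samples of a group came from separate cultures, so p-values measure the spread between these samples, which may be technical.

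Library totals ran from 20018234 to 37149112 counted reads. Control replicate 1 was the shallowest library and stood apart from the other controls on the second principal component, at 47.03 against values from -16.8 to 6.98. It was the highest control in 24 of the 38 members, whereas it was the highest control in 32.2% of all tested genes, and values without it are given below wherever they change a call. Although labelled as neurons, the cultures also held glial RNA. The 18 neuron markers summed to between 10857.7 and 11676.1 CPM (a read count scaled to a common library size) in controls and between 11133.6 and 11522.9 CPM in mimic libraries, with 3 markers higher and 4 lower. The 10 astrocyte markers summed to 5175.6 to 5694.2 CPM and 6277.9 to 6710.1 CPM, with 7 higher and 1 lower. Of the 10 oligodendrocyte lineage markers 5 were higher and 1 lower, with sums of 428.9 to 723.8 CPM and 810.1 to 1003.0 CPM, and all 9 dividing cell markers were higher. Sums of the 8 mesenchymal markers were 200.6 to 267.9 CPM and 98.13 to 226.3 CPM, those of the 7 endothelial markers, nearly all from Kdr, were 46.61 to 68.73 CPM and 28.33 to 50.88 CPM, those of the 6 ependymal markers were 109.2 to 128.4 CPM and 83.23 to 106.8 CPM, and no marker of these 3 lists was called higher, with 2, 2 and 4 called lower. The 12 microglia markers summed to 25.35 to 29.49 CPM and 23.59 to 39.43 CPM, with 3 lower and none higher. No marker of any list was at 0 in all libraries, and the part of these differences in the values of the members was not tested. In bulk RNA, fewer cells of a type and less RNA per cell cannot be told apart.

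The sequences that define the treatment are those of the mimic and the control. A microRNA pairs with messenger RNAs mainly through its seed, bases 2 to 8, shown in capitals. The mimic sequence is identical to mature mmu-miR-148a-3p in RefSeq (GRCm38.p6), which lies at chr6:51269829-51269850 on the minus strand. The control sequence is the one that the study lists for mimic controls, taken here as the one used.
mimic miR-148a-3p: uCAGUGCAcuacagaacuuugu
negative control: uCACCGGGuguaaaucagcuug

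A match to the mimic's seed in the 3′ untranslated region (UTR), either TGCACTG or GCACTGA, was present in 8 of the 38 members (21.1%) and in 3307 of 15082 tested genes with such a region (21.9%). Of these 8 members, Btg2 and Gadd45g were called higher, Egr2, Klf4 and Dusp1 were called lower, and Egr3, Fosb and Sik1 were not called. Their median log2 fold change was 0.03, beside 0.16 for the 30 members without a match, of which 11 were higher and 3 lower. Over all tested genes, those with a match were called higher in 11.7% and lower in 19.2% with a median of -0.04, and those without one were called higher in 14.1% and lower in 10.8% with a median of 0.0013. A match is a description of letters and not a measured site. The control's own seed had matches in 2 of the 38 members, Fosl2 and Fosb (5.26%, beside 4.42% of all tested genes with such a region). All 9 matches to the mimic's seed in the 8 members are shown, because members that carry one were called in both directions. Capitals mark the matching bases, each with 10 bases on either side, and the first match in Sik1 alone was 8 bases long.
Btg2: agggcacctgTGCACTGcaggactacc
Gadd45g: cttagccgacTGCACTGctctttcaaa
Egr2: atttttgatgTGCACTGctctccgagt
Klf4: cagtctgttaTGCACTGtggtttcaga
Dusp1: tttgctttcgGCACTGAcagacaaagc
Egr3: gccagcgcagTGCACTGgaataaagag
Fosb: cccttggttcTGCACTGtcgccaataa
Sik1, first match: gttttctcctTGCACTGAgtgacctcaa
Sik1, second match: caaaggcctgTGCACTGctgtgtgtca

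Across the 38 members, 13 were called higher and 6 lower in mimic libraries, at an adjusted p under 0.05 in edgeR's quasi-likelihood test. That is 50% of the members, where 22.2% of all tested genes were called, 11.5% higher and 10.7% lower. The 13 higher members were Btg2, Arc, Ptgs2, Dusp6, Nptx2, Trib1, Nr4a1, Npas4, Gadd45g, Pcsk1, Nr4a2, Egr1 and Klf10, and the 6 lower members were Egr2, Klf4, Gem, Fos, Dusp1 and Plk2. The median log2 fold change was 0.16 over the members and -0.01 over all tested genes. Groups did not overlap in 9 members, 6 with every mimic library above every control and 3 with every mimic library below, while 13.3% of all tested genes showed no overlap. Without control replicate 1, 17 members were higher and 6 lower, and with the loss of any other single library the counts were 11 to 13 higher and 6 or 7 lower. The shares of all tested genes called in these settings are not given here, so these counts have no background beside them.

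**Figure D1:**
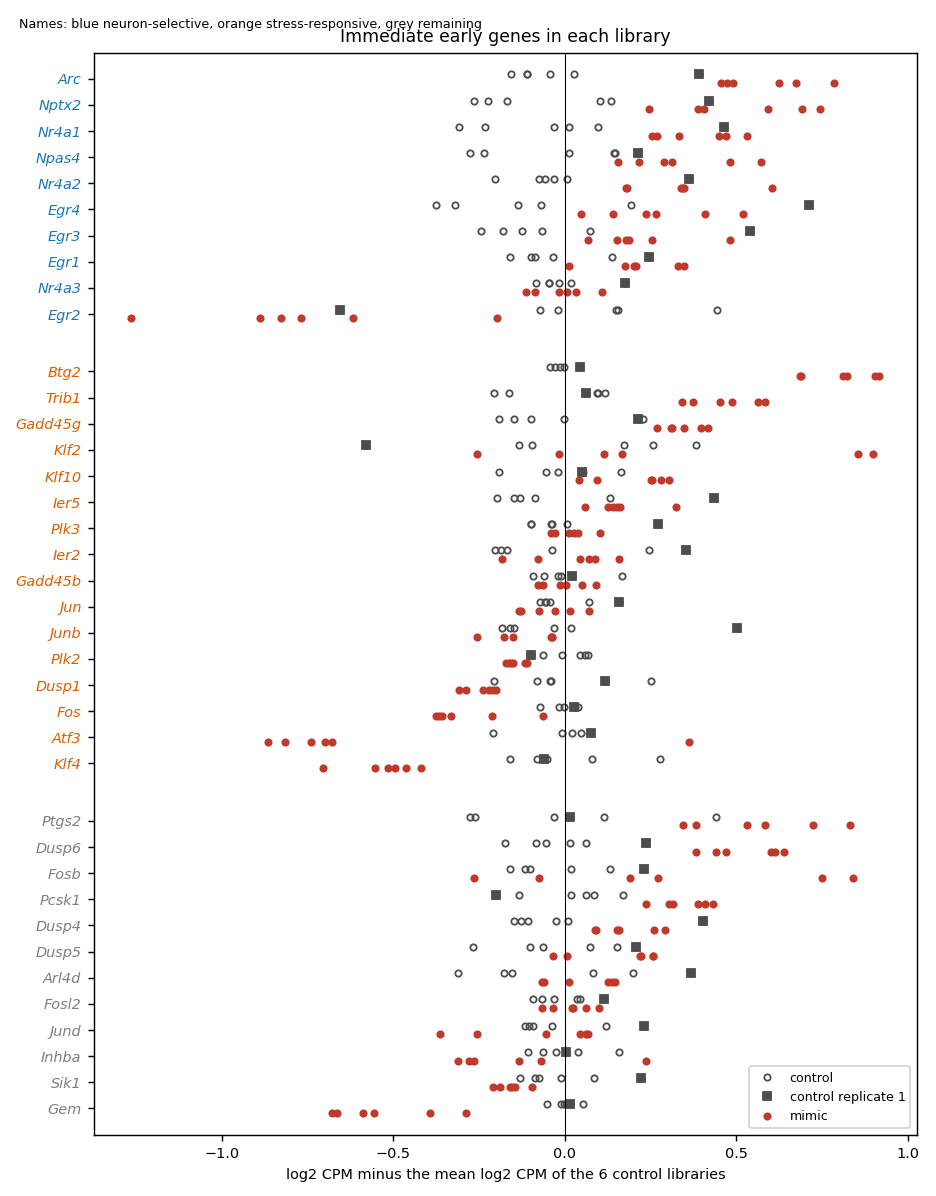
Each row is a member and each mark a library: log2 CPM minus the mean log2 CPM of the 6 control libraries is on the x axis, with controls as open circles, control replicate 1 as a square and mimic libraries as red points. Arc, Btg2, Trib1, Gadd45g, Dusp6 and Pcsk1 show every mimic library to the right of every control, and Klf4, Plk2 and Gem every mimic library to the left.

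Calls were also counted by class. Among the 10 neuron-selective members 6 were higher (60%, beside 11.5% of all tested genes) and 1 was lower (10%, beside 10.7%), with a median log2 fold change of 0.30. Among the 16 stress-responsive members 4 were higher and 4 lower (25% each, both above the shares of all tested genes), with a median of 0.01. Against a minimum fold change of 1.2 the neuron-selective class held 1 higher and 1 lower, the stress-responsive class 2 and 1, and all members 5 and 3. The share of all tested genes called at that threshold is not given here. Of the remaining 12 members 3 were higher (25%) and 1 was lower (8.33%), with a median of 0.10. These counts and medians describe lists that were chosen with results known, and the difference between the classes was not tested. Library by library, the median of the neuron-selective members relative to the control mean was 0.17 to 0.47 in the 6 mimic libraries. It was 0.38 in control replicate 1 and -0.20 to 0.09 in the other 5 controls, so only control replicate 1 lay within the range of the mimic libraries. The stress-responsive medians were -0.09 to 0.03 in mimic libraries and -0.10 to 0.07 in controls, and these ranges overlapped almost fully. Without control replicate 1 the neuron-selective class had 8 higher and 1 lower with a median of 0.40, and the stress-responsive class had 5 higher and 4 lower with a median of 0.04. The share of all tested genes called without that library is not given here.

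**Figure D2:**
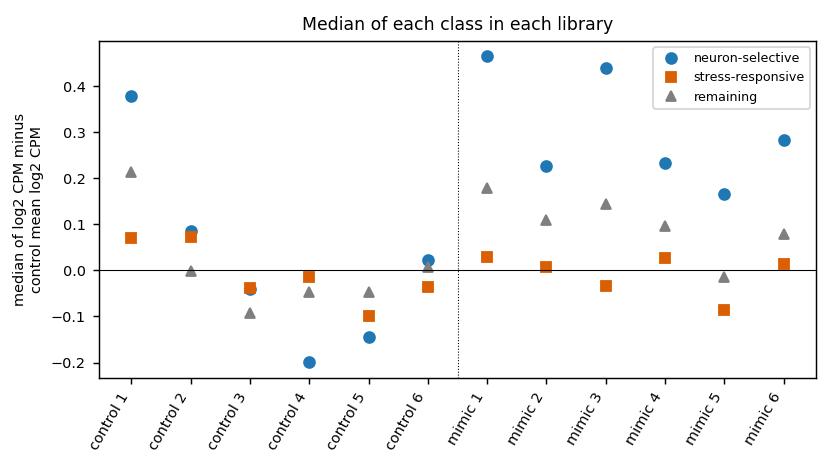
For each of the 12 libraries on the x axis, points give the median over the members of each class of log2 CPM minus the mean log2 CPM of the controls. Neuron-selective members (circles) lie at 0.17 to 0.47 in mimic libraries and at 0.38 in control replicate 1, while stress-responsive members (squares) stay between -0.10 and 0.07 in all libraries.

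Arc, which encodes a capsid-forming protein of dendrites that governs AMPA receptor endocytosis, gave the largest rise of the neuron-selective class (chr15:74669083-74672570, minus strand, mm10). Its level was 11.9 CPM at the lowest, 12.5 CPM at the median and 17.3 CPM at the highest of the 6 controls, and 18.1, 19.5 and 22.8 CPM in the mimic libraries. Every mimic library was above every control, although control replicate 1 came close to the lowest mimic library. The log2 fold change was 0.59 ± 0.08 (SE), which is 1.502-fold, at an adjusted p of 6.16e-05. Nptx2, a secreted pentraxin that clusters AMPA receptors at excitatory synapses onto interneurons, was at 13.5, 15.9 and 21.7 CPM (lowest, median, highest) in controls and at 19.2, 22.9 and 27.1 CPM in mimic libraries. Control replicate 1 alone among the controls reached the mimic range, and the log2 fold change was 0.52 ± 0.11 (adjusted p 0.00339). Npas4, a neuron-specific bHLH-PAS factor induced selectively by calcium entry, was at 8.26, 10.6 and 11.6 CPM in controls and at 11.2, 12.3 and 14.9 CPM in mimic libraries. The groups overlapped at their edges, with all 6 mimic libraries above the control mean and a log2 fold change of 0.34 ± 0.09 (adjusted p 0.0119).

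The Egr genes encode zinc finger factors that bind GC-rich elements, and Egr2 moved apart from Egr1, Egr3 and Egr4. Egr1, the most widely used activity marker of the family, was at 43.5, 46.6 and 57.5 CPM (lowest, median, highest) in controls and at 49.0, 56.0 and 61.8 CPM in mimic libraries. Its log2 fold change was 0.21 ± 0.07 (adjusted p 0.0348). This call was the least stable of the class, since it passed the threshold without control replicate 1 (0.26, adjusted p 0.0029) and was lost without any one of 9 other libraries. Egr2, which is also the factor that drives myelination in Schwann cells, was at 2.78, 4.58 and 5.94 CPM in controls and at 1.82, 2.51 and 3.81 CPM in mimic libraries. It was the only neuron-selective member called lower, by 0.77 on the log2 scale (SE 0.17, adjusted p 0.00312), and here control replicate 1 was the lowest control. Without that library the log2 fold change was -0.86 (adjusted p 0.000207).

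Egr3, which is needed for muscle spindles and takes part in hippocampal memory, had control values of 15.6, 17.3 and 26.9 CPM and mimic values of 19.4, 21.0 and 25.8 CPM. Egr4 had control values of 10.9, 13.1 and 23.1 CPM and mimic values of 14.6, 16.8 and 20.2 CPM. In both genes control replicate 1 was above every mimic library, and neither difference passed the test, at log2 fold changes of 0.22 (95% interval -0.02 to 0.45, adjusted p 0.199) and 0.25 (-0.08 to 0.59, adjusted p 0.289). Without that library Egr3 was called at 0.33 (adjusted p 0.000894) and Egr4 at 0.42 (adjusted p 0.00721). With all libraries and the replicate number as a block in the fit, Egr3 was called at 0.22 (adjusted p 0.042). Egr4 was not called in that fit (0.27, adjusted p 0.0712).

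Nr4a1, Nr4a2 and Nr4a3 encode orphan nuclear receptors that are induced by cAMP and calcium and take part in memory consolidation. Nr4a1 was at 14.1, 17.3 and 24.0 CPM in controls and at 20.8, 22.8 and 25.1 CPM in mimic libraries, with a log2 fold change of 0.38 ± 0.10 (adjusted p 0.0130). Nr4a2, which is also needed for midbrain dopamine neurons, was at 6.03, 6.74 and 8.94 CPM and at 7.86, 8.81 and 10.6 CPM, with a log2 fold change of 0.34 ± 0.09 (adjusted p 0.0113). In both genes control replicate 1 alone among the controls reached into the mimic range. Nr4a3 had the highest count of all members, at 362, 376 and 435 CPM in controls and at 356, 383 and 415 CPM in mimic libraries. The groups covered the same range, and its log2 fold change of -0.01 had a 95% interval of -0.11 to 0.09 (adjusted p 0.896). The gene model behind this unusually high count could not be checked, since the annotation release is not given in the sources used here.

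Among the stress-responsive members the AP-1 subunits, which pair to bind the TGAGTCA element, were mostly not called. With Fosb, Fosl2 and Jund of the remaining class there were 7 such subunits, of which Fos alone was called, and lower, which is 14.3% beside 22.2% of all tested genes. Fos had control values of 17.6, 18.7 and 19.0 CPM and mimic values of 14.3, 14.6 and 17.8 CPM. All 6 mimic libraries were below the control mean, the fall was 0.28 on the log2 scale (SE 0.06, adjusted p 0.00134), and the groups touched only at the lowest control. Jun, Junb and Jund had log2 fold changes of -0.05, -0.12 and -0.07, none past the test, and all 3 turned slightly positive without control replicates 1 and 2. Exons of Junb share 173 bases with Prdx2 on the other strand, those of Jun share 232 bases with Junos and those of Jund share 877 bases with Gm11175, and reads from such overlaps cannot be told apart in libraries that do not mark strand. Fosl2 was at 0.02 (95% interval -0.07 to 0.11). Fosb, the subunit whose stable splice form accumulates with repeated stimulation, ranged from 1.42 to 1.87 CPM in controls and from 1.33 to 2.85 CPM in mimic libraries, and its log2 fold change of 0.36 was not called (adjusted p 0.165).

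Atf3, a stress-induced partner of Jun and a marker of injured neurons, ranged from 4.44 to 5.40 CPM in controls. In the mimic group 5 libraries were between 2.815 and 3.199 CPM, below every control, and mimic replicate 2 was at 6.59 CPM, above every control. The log2 fold change was -0.50 (adjusted p 0.0579), and without mimic replicate 2 it was -0.76 (adjusted p 3.95e-06). Mimic replicate 2 also had the highest summed microglia markers, at 39.43 CPM against 23.59 to 30.38 CPM in the other mimic libraries, and the part of this in its Atf3 value was not tested. With all libraries DESeq2 put Atf3 past the threshold (adjusted p 0.0243), and so did limma-voom and the fit with a replicate block.

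Btg2, an antiproliferative cofactor of deadenylases and a p53 target, rose more than any other member (chr1:134075170-134079120, minus strand, mm10). Controls were at 26.31, 26.96 and 27.98 CPM (lowest, median, highest) and mimic libraries at 43.6, 47.8 and 51.2 CPM. The groups were far apart, with a log2 fold change of 0.81 ± 0.05, or 1.75-fold (adjusted p 2.43e-09). Trib1, a pseudokinase that steers proteins to the COP1 ubiquitin ligase, was at 12.33, 15.01 and 15.42 CPM in controls and at 18.0, 19.7 and 21.3 CPM in mimic libraries. Every mimic library was above every control, at a log2 fold change of 0.47 ± 0.07 (adjusted p 5.07e-05). Gadd45g, one of a family of small proteins of DNA demethylation and p38 signalling, was at 14.1, 15.6 and 18.9 CPM in controls and at 19.5, 20.3 and 21.6 CPM in mimic libraries. Its groups did not overlap either, at 0.34 ± 0.07 (adjusted p 0.00148). Klf10, a zinc finger factor downstream of TGF-beta, rose by 0.20 ± 0.06 (adjusted p 0.0189) with overlapping groups, from a mean of 37.3 ± 3.08 CPM to 43.0 ± 3.17 CPM (SD, n = 6 each). Without mimic replicate 1 this call was lost (0.18, adjusted p 0.0515).

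Klf4, a zinc finger factor of endothelial, epithelial and stem cells, was the stress-responsive member called lower by the most. It was at 2.17, 2.33 and 2.94 CPM in controls and at 1.49, 1.71 and 1.81 CPM in mimic libraries, so that no mimic library reached a control. The log2 fold change was -0.53 ± 0.10 (adjusted p 0.000718). Plk2, a kinase that weakens excitatory synapses after prolonged activity, was at 90.29, 97.97 and 101.3 CPM in controls and at 85.8, 86.9 and 89.6 CPM in mimic libraries. The fall was small, 0.15 on the log2 scale (SE 0.04, adjusted p 0.00578), yet the groups did not overlap. Dusp1, a nuclear phosphatase that switches off p38 and JNK, fell by 0.24 on the log2 scale (SE 0.07, adjusted p 0.0152), from 11.2 CPM at the control median to 9.80 CPM at the mimic median. Its values spread far less in mimic libraries (9.27 to 9.99 CPM) than in controls (9.96 to 13.7 CPM).

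The other 7 stress-responsive members beside Atf3 that were not called were Jun, Junb, Ier2, Ier5, Klf2, Gadd45b and Plk3. Ier2, a short-lived nuclear protein, Plk3, a stress kinase, and Gadd45b stayed near 0, with log2 fold changes of 0.02, 0.02 and -0.0005 and 95% intervals of -0.18 to 0.22, -0.10 to 0.14 and -0.12 to 0.12. Klf2, which is best known from endothelium, was the rarest member by count, at 0.40 to 0.79 CPM in controls and 0.51 to 1.13 CPM in mimic libraries. Its log2 fold change of 0.32 had an interval of -0.15 to 0.79 (adjusted p 0.353). Ier5, a cofactor of heat shock factor, was at 0.15 (adjusted p 0.265) with all libraries and at 0.25 (adjusted p 0.00178) without control replicate 1.

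Of the 3 remaining members that encode secreted or synaptic effectors, 2 were called higher. Pcsk1, the convertase that cleaves pro-neuropeptides in dense-core vesicles, was at 30.9, 36.5 and 39.9 CPM in controls and at 41.8, 45.3 and 47.9 CPM in mimic libraries. No control reached a mimic library, and the log2 fold change was 0.34 ± 0.06 (adjusted p 0.000295). Ptgs2, the inducible cyclooxygenase that excitatory neurons express after synaptic input, was at 4.42, 5.32 and 7.27 CPM and at 6.79, 7.87 and 9.52 CPM, a log2 fold change of 0.56 ± 0.12 (adjusted p 0.00183) with groups that overlapped only through the highest control. Inhba, the activin A subunit that is induced by NMDA receptors, was not called, at -0.13 (adjusted p 0.437), with mimic replicates at 1.99 to 2.91 CPM and controls at 2.29 to 2.75 CPM. With Arc and Nptx2, 4 of 5 effectors were higher and none was lower, where 11.5% of all tested genes were called higher and 10.7% lower.

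The dual-specificity phosphatases, which remove phosphate from MAP kinases, split by member. Dusp6, the cytoplasmic phosphatase specific for ERK, was at 62.3, 69.3 and 82.8 CPM in controls and at 91.6, 102 and 109 CPM in mimic libraries. All mimic libraries lay above all controls, with a log2 fold change of 0.52 ± 0.06 (adjusted p 8.41e-06). Dusp4 and Dusp5, which act on nuclear MAP kinases, were at 0.17 (adjusted p 0.145) and 0.16 (adjusted p 0.193), neither of them called, and Dusp4 was called without control replicate 1 at 0.26 (adjusted p 0.000133). Gem, a small GTPase that restrains voltage-gated calcium channels, was the remaining member called lower. Controls held 13.2, 13.7 and 14.2 CPM of Gem and mimic libraries 8.54, 9.19 and 11.2 CPM, with no overlap and a fall of 0.52 on the log2 scale (SE 0.07, adjusted p 1.48e-05). Arl4d, another small GTPase, was at 0.04 (95% interval -0.19 to 0.27). Sik1, a CREB-induced kinase that phosphorylates CREB coactivators, was below the control mean in all 6 mimic libraries at -0.16, just short of the threshold (adjusted p 0.0574). It was called lower by DESeq2 (adjusted p 0.0485), with a filter of at least 10 counts in 6 samples (0.0438), and without control replicate 4 (0.0325) or 5 (0.0484).

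**Figure D3:**
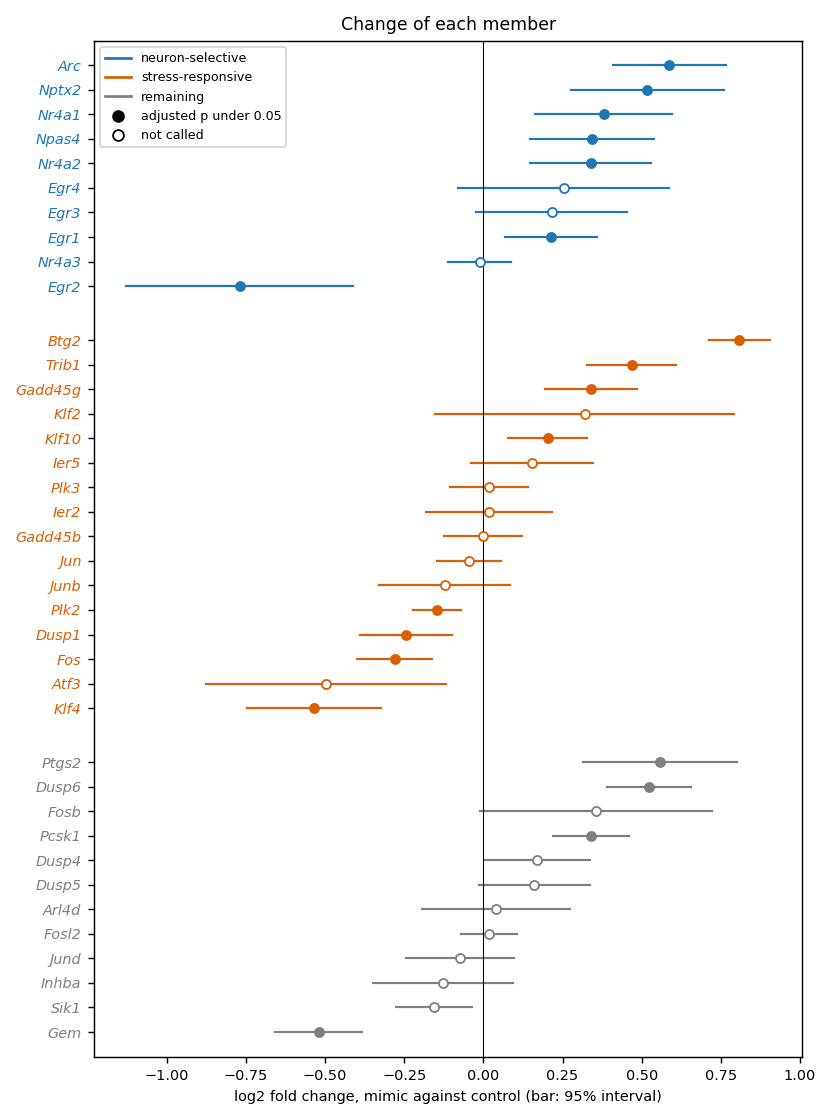
Points give the log2 fold change of each member, mimic against control, from edgeR with 6 libraries in each group, and bars its 95% interval. Filled points passed an adjusted p of 0.05. The neuron-selective members lie to the right of 0 except for Nr4a3 near 0 and Egr2 at -0.77, and the stress-responsive members run from Klf4 at -0.53 to Btg2 at 0.81.

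Ratios of 2 genes within a library do not depend on scaling between libraries, and they were taken here for pairs of relatives among the members. Of 26 such pairs, 15 differed between the groups at an adjusted p under 0.05 (exact permutation test over 924 relabellings, two-sided, Benjamini-Hochberg over the 26 pairs, with 0.00216 as the smallest unadjusted p possible). The pairs were formed after the values were seen and the share among other gene pairs was not computed, so the count describes these pairs only. Fos fell relative to Fosl2 by 0.30 on the log2 scale, with no overlap of the libraries. Klf4 fell relative to Klf10 by 0.73, Dusp1 relative to Dusp6 by 0.77 and Gadd45b relative to Gadd45g by 0.34, again with no overlap (adjusted p of 0.00703 in each by the exact test). Nr4a2 rose relative to Nr4a3 by 0.34 (exact test, adjusted p 0.00703), and Egr1 rose relative to Egr2 by 0.97 (exact test, adjusted p 0.0188). By contrast Egr1, Egr3 and Egr4 kept nearly the same proportions, with differences of -0.01, -0.06 and -0.05 for their 3 pairs, and none of the 3 Jun pairs passed the test. Ratios show unequal change and not which partner moved.

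Levels per exon length, in CPM per kilobase, ranged over the members from 64.4 for Nr4a3 to 0.256 for Fosb in controls. Nr4a3 stood alone at the top, followed by Dusp6 at 22.5, Jun at 21.9, Plk2 at 21.6 and Jund at 20.3. Each of these genes from Dusp6 onwards overlapped with the next in the range of the 6 controls. Nr4a1 and Nr4a2, the relatives of Nr4a3, were at 5.04 and 1.73. The annotation release used for counting is not given in the sources used here, so the gene model behind the Nr4a3 count could not be checked, and its place in this order rests on that count. Among the classic activity markers Egr1 was at 10.9, Fos at 7.89, Nptx2 at 6.47, Arc at 4.36 and Npas4 at 2.44 CPM per kilobase. At the lower end were Ptgs2 at 1.19, Klf4 at 0.799, Inhba at 0.387, Klf2 at 0.335 and Fosb. Of the 37 pairs of neighbours in this order only Nr4a3 and Dusp6, Ptgs2 and Klf4, and Klf4 and Inhba were separate in every control. In the mimic group Nr4a3 and Dusp6 kept the first places, at 63.8 and 32.3, Btg2 moved from rank 11 to rank 8, Arc from 23 to 18 and Gem from 17 to 24.

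**Figure D4:**
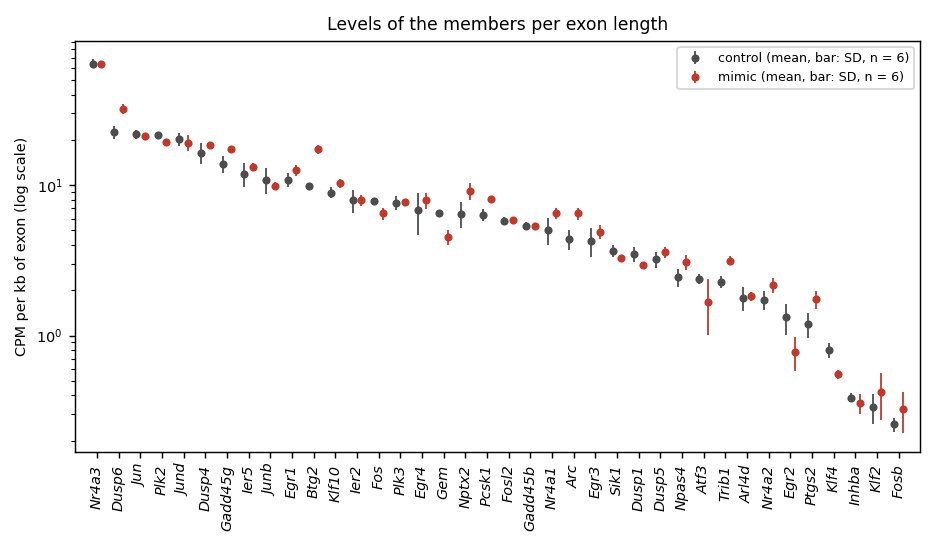
Members are ordered by their control level on the x axis, and points give the mean CPM per kilobase of exon with the SD over 6 libraries on a log axis, control in grey and mimic in red. Nr4a3 stands at 64.4 in controls and 63.8 in mimic libraries, and Fosb is the lowest at 0.256 and 0.323.

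Further genes of the pathway were taken from lists of genes that are not members. Of 36 later and other activity-induced genes, 35 were tested, 10 were higher (28.6%, beside 11.5% of all genes) and 2 lower (5.71%, beside 10.7%), with a median log2 fold change of 0.04. Bdnf, the neurotrophin whose transcription follows CREB and Npas4, rose from 92.1 ± 7.19 CPM to 111.6 ± 8.58 CPM (SD, n = 6 each), with no overlap and a log2 fold change of 0.28 ± 0.06 (adjusted p 0.0016). Homer1, a postsynaptic scaffold with an activity-induced short form, was not called at 0.08 (adjusted p 0.339). The 3 largest rises were Rasgrp1, a calcium-dependent activator of Ras, at 0.68, Penk, the proenkephalin gene, at 0.50, and Sorcs3, a sorting receptor of synapses, at 0.47. The 2 genes called lower were Pdyn, the prodynorphin gene, at -0.33, and Acan, a proteoglycan of perineuronal nets, at -0.21.

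In a list of 32 other immediate early genes that many cell types express, 13 were lower (40.6%, beside 10.7% of all genes) and 6 higher (18.8%, beside 11.5%), with a median of -0.12. Its largest falls were Cebpd at -1.21, Ccn1 at -0.94 and Ier3 at -0.76, each with every mimic library below every control. Cebpd encodes an inflammatory bZIP factor, Ccn1 a matrix protein downstream of YAP and serum response factor, and Ier3 a survival factor. Cdkn1a, the p21 cell cycle inhibitor, rose by 0.55, Spry2, a feedback inhibitor of ERK signalling like Dusp6, rose by 0.48, and Zfp36l2, a factor of RNA decay, rose by 0.34. In these libraries the mesenchymal, endothelial and ependymal marker sums were lower on average in the mimic group, as given above. The endothelial sum fell through Kdr (58.6 to 37.56 CPM at the means) and the mesenchymal sum mainly through Acta2 (27.04 to 3.745 CPM) and Tagln (49.21 to 14.69 CPM), while Dcn was not called at 0.42. The part of these markers in the falls of Klf4, Egr2, Gem, Ccn1 and Cebpd was not tested.

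Of 35 upstream regulators, which are the receptors, kinases and factors that lead to these genes, 5 were higher and 2 lower, which is 20% against 22.2% of all genes. Creb1 and Srf were not called, at 0.11 and 0.01 on the log2 scale. Without control replicates 1 and 2 Srf was called higher, at a log2 fold change of 0.10 (adjusted p 0.0282). Elk3, a ternary complex partner of serum response factor, rose by 0.45, and Adcy1, the calcium-stimulated adenylyl cyclase, by 0.20. Atf1, a relative of Creb1, was called at 0.21, but this call was lost without any one of 10 libraries and under 3 other alternatives. Cacna1d, an L-type calcium channel subunit, was at -0.20, and Camk2b, a subunit of the synaptic calcium kinase, was at -0.19, both called lower with no overlap of the groups. Camk2a, the other main subunit of that kinase and named here after its value was seen, was called higher at 0.18 (adjusted p 0.014).

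**Figure D5:**
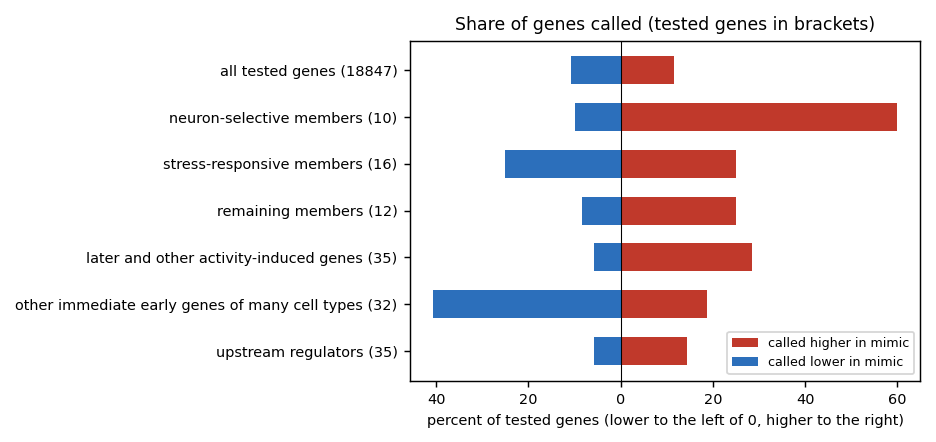
Bars give the percent of tested genes called higher (right, red) or lower (left, blue) in mimic libraries for all tested genes, the 3 classes of members and 3 lists of other pathway genes, with the number tested in brackets. Neuron-selective members reach 60% higher and 10% lower, the other immediate early genes 18.8% higher and 40.6% lower, and all genes 11.5% and 10.7%.

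Promoter sequences, from 250 bases before to 50 bases after the transcription start in RefSeq (GRCm38.p6), were at hand for 28 of the 38 members. None was at hand for Arc, Nptx2, Egr1, Klf10 and Trib1, which were called higher, or for Gem, Egr3, Dusp4, Ier2 and Sik1. The Jund window, chr8:70697489-70697788 on the plus strand, lies before the start of the counted gene at 70698949, and it held none of the elements below. The cAMP response element (CRE) TGACGTCA, which CREB binds, was present in 5 of the 28 (17.9%), beside 2.03% of all genes with a window. Its shorter form TGACG, of which each full element holds one copy on each strand, was in 20 of 28 (71.4%), beside 23.0% of all genes. The Egr element GCGGGGGCG was in 5 of 28 (17.9% beside 3.31%), the serum response element in 2 (7.14% beside 1.81%), and the AP-1 element TGAGTCA in none (beside 5.95%). Both strands were searched. Of the 5 members with a full CRE, Btg2 and Pcsk1 were higher, Dusp1 and Plk2 lower and Arl4d was not called. Over all tested genes that hold it, 11.6% were higher and 10.4% lower. Of the 23 members without it 6 were higher and 3 lower, beside 13.1% and 11.8% of all tested genes without it. With the short form 6 of 20 were higher and 5 lower, beside 12.0% and 10.9% of all tested genes that hold it, and without it 2 of 8 were higher and none lower, beside 13.6% and 12.2%. The 4 promoters of called members with a full CRE are shown together with those of Npas4 and Nr4a1, which hold the short form 2 and 4 times, the latter beside an Egr element. Each runs in the direction of transcription, with CRE, short CRE and Egr matches in capitals on either strand. A match describes letters and is not a measured binding site.
Btg2, chr1:134079106-134079405, minus strand: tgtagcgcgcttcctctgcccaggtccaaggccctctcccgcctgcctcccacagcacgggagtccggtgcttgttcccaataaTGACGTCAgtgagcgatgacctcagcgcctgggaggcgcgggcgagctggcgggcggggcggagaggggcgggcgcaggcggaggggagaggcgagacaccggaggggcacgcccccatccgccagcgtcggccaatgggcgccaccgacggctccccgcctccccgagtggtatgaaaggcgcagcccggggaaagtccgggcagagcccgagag
Pcsk1, chr13:75089607-75089906, plus strand: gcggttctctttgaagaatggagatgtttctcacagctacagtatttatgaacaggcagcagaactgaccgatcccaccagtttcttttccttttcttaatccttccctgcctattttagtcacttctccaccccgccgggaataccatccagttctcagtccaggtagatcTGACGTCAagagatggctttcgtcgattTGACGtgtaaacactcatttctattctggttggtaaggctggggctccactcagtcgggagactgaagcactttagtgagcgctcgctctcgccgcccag
Dusp1, chr17:26508423-26508722, minus strand: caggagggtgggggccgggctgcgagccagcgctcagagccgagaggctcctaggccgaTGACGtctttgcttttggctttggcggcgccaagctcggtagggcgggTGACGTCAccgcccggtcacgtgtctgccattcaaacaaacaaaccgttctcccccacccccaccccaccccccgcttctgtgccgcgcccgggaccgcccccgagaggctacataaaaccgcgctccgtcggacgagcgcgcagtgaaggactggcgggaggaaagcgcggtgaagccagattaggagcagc
Plk2, chr13:110394794-110395093, plus strand: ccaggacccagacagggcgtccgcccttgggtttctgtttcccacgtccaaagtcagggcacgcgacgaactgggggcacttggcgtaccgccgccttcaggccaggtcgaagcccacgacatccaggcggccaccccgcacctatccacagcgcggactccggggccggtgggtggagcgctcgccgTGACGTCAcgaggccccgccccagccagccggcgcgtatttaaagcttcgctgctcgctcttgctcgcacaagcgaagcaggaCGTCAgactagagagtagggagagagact
Npas4, chr19:4989922-4990221, minus strand: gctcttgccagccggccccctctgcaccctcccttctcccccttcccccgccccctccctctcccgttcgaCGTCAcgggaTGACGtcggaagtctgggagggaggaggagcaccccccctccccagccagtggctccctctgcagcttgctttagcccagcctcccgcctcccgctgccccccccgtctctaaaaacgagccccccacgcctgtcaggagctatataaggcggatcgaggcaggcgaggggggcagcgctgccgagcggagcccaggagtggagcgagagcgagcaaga
Nr4a1, chr15:101266596-101266895, plus strand: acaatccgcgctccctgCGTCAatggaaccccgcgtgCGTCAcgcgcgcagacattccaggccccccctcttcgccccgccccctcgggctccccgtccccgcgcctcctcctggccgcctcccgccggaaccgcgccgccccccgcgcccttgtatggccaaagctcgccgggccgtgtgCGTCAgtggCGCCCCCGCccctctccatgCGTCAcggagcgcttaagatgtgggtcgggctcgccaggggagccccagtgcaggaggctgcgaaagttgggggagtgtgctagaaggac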

How the data were processed

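The authors deposited raw read counts per Ensembl gene for each of the 12 samples, made per the labels with STAR 2.5.2b on mm10 and featureCounts of Subread 1.5.1 after FastQC 0.11.5. The annotation release and the settings for strand and multi-mapping reads are not given in the sources used here. A series table of 12 normalized columns was not used here, since its column names match no single sample. Symbols came from the reference annotation for 48349 of 48709 genes.

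Groups followed the sample titles, 6 control and 6 mimic. Genes that reached 5 counts in 6 or more samples, which is the study's filter of 50%, were tested with edgeR 4.0.16 (TMM, robust quasi-likelihood, no covariates, R 4.3.3), adjusted by Benjamini-Hochberg over all 18847 genes. CPM used TMM-scaled library sizes. No 2 libraries of a group agreed within sampling noise (chi-square over degrees of freedom 1.78 to 42.7). Depth sets the counting error only. Deviations of samples with the same number correlated at -0.04 to 0.09 over the tested genes. No pairing by number was seen there, but such a correlation cannot exclude one. Among the members, replicate 1 was most often the highest (24 in controls, 12 in mimic libraries) and replicate 5 most often the lowest (11 and 14). Whether the numbers pair the samples is not known, and the main fit left them unpaired.

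The members, classes and lists were chosen with earlier results of these data known. All 38 members are named, and of each list Bdnf, Homer1, Creb1, Srf and up to 3 called genes in each direction with the largest change and a mean of at least 100 counts. Library values are given for neuron-selective members and for called members without overlap, and for other called members as far as they show where groups overlap. Alternatives were DESeq2 1.42.0, limma-voom 3.58.1, other scalings and filters, a minimum fold change, a replicate block and leaving out libraries.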

Additional observations from a re-analysis of the deposited data

Results flagged for a closer look

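Of the 76 sets of 6 values formed by 38 members in both groups, 11 held a library set apart from the rest of its group by a gap that was large against the whole range of that group. Chance flags about 1 in 20 sets, here 3.8, and the sets share libraries.

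Of the 11, 7 were high values of control replicate 1, the shallowest library. It held Junb at 35.05 CPM against 21.78 to 25.07 CPM in the other controls, Egr3 at 26.92 CPM against 15.62 to 19.46 CPM, and Arc at 17.32 CPM against 11.85 to 13.46 CPM. In the same library Nr4a2 was at 8.938 CPM against 6.034 to 6.978 CPM, Nr4a3 at 434.5 CPM against 362.4 to 389.4 CPM, Dusp4 at 58.93 CPM against 40.26 to 44.87 CPM, and Plk3 at 23.33 CPM against 18.04 to 19.42 CPM. These genes belong to all 3 classes, and its oligodendrocyte lineage marker sum of 723.8 CPM was also above the 428.9 to 458.6 CPM of the other controls. The part of depth or cell makeup in these values was not tested.

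Atf3 was set apart in both groups. Mimic replicate 2 held 6.593 CPM against 2.815 to 3.199 CPM in the other mimic libraries, and control replicate 5 held 4.436 CPM against 5.092 to 5.403 CPM in the other controls.

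Mimic replicate 3 was high for Nr4a2, at 10.56 CPM against 7.856 to 8.836 CPM. Mimic replicate 1 was high for Ier5, at 48.32 CPM against 40.19 to 43.14 CPM.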

How the results depend on the processing

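Requiring a fold change above 1.2 in the test left 5 members higher and 3 lower, with 1 neuron-selective member higher and 1 lower (Egr2), and 2 stress-responsive members higher and 1 lower. It left 2 higher and 0 lower of the later activity-induced genes, 3 and 4 of the other immediate early genes, and 1 and 0 of the upstream regulators. The share of all tested genes called under this or the other alternatives is not given here. If all 28 members outside the neuron-selective class are taken in place of the 16 stress-responsive ones, 7 were higher and 5 lower. The median log2 fold change of the stress-responsive members lay near 0 throughout: -0.0212 to 0.0383 with any one library left out, negative without control replicates 4, 5 or 6 or mimic replicates 1 or 6, and 0.0651 without control replicates 1 and 2.

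Upstream regulators called higher numbered 3 when all genes with at least 1 count were kept, 9 without control replicates 1 and 2, when 7 were called lower, and 3 to 6 with any one library left out, when 2 to 4 were called lower. The low count of 3 came without mimic replicate 1 or mimic replicate 6, and 4 were lower without control replicate 1 or control replicate 2.

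Among uncalled genes the sign was not fixed. Without control replicates 1 and 2 it turned for Jun (0.0119), Junb (0.0168), Jund (0.0148), Nr4a3 (0.0127), Gadd45b (0.0436) and Creb1 (-0.0117). Gadd45b was at 0.0038 in DESeq2, 0.0021 with RLE scaling, 0.0023 with library totals, 0.0027 in limma-voom and 0.0017 with at least 1 count. With any one library left out, Gadd45b ranged from -0.0195 to 0.0327, Nr4a3 from -0.0369 to 0.025, Ier2 from -0.0231 to 0.0892, Arl4d from -0.0103 to 0.1035, Plk3 from -0.0009 to 0.0729 and Srf from -0.027 to 0.0777. The causes were not tested.

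The replicate numbers did not pair the samples. With a replicate block in the fit 14 members were higher and 7 lower, and 3 upstream regulators were higher. DESeq2 gave 13 members higher and 8 lower, limma-voom 13 and 7. The number of family ratios past the test was 13 to 16 with any one library left out and 17 without control replicates 1 and 2, settings that were chosen after seeing the data.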
